A study of Mus musculus with 6 samples.

Results

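DNA damage repair genes were examined in mouse liver with and without a deficiency of Mettl3. The set is a list of 43 named genes of homologous recombination, the Fanconi pathway, end joining, excision and mismatch repair, translesion synthesis and checkpoint signalling. All 43 were found among the 27179 gene identifiers of the count files and all 43 passed the filter on low counts, which kept 14380 genes. The list was drawn up by gene function, with earlier results of these libraries known.

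Cells repair broken DNA along several routes. In homologous recombination a break is resected, BRCA2 and PALB2 act on the single-stranded DNA, and an intact sister chromatid serves as the template, so that this route works in S and G2 phase. End joining ligates the ends directly and is open to resting cells. The Fanconi pathway unhooks crosslinks at stalled forks, excision repair removes damaged bases or bulky lesions, mismatch repair corrects replication errors, and ATM, ATR and their kinases halt the cycle meanwhile. Most hepatocytes of an adult liver rest outside the cycle, and many recombination and checkpoint genes are known for transcription that follows the cell cycle.

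The comparison set 3 liver libraries of wild-type C57BL/6 mice against 3 Mettl3-deficient liver libraries of the same strain. Mettl3 encodes the catalytic subunit of the enzyme that methylates adenosine at its N6 position in RNA. The labels name no treatment, age, promoter or Cre, and how the gene was made deficient is not given in the sources used here. Total RNA depleted of ribosomal RNA was sequenced to between 31960205 and 36025772 counts per library. Levels are given as CPM, counts scaled to a common library size with TMM factors, which correct for differences in composition between libraries. A gene was called at an edgeR adjusted p under 0.05, and every fold change is Mettl3-deficient over wild type.

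Mettl3 itself, as a check of the labels, measured 13.4, 14.3 and 12.1 CPM in the wild-type libraries and 5.96, 6.60 and 4.94 CPM in the Mettl3-deficient ones, so some transcript was still counted. It fell by 1.18 ± 0.20 (SE) on the log2 scale (edgeR adjusted p = 0.00797). Hepatocyte markers were present in every library, with the sum of 10 such genes at 154000 to 199100 CPM in wild type and 67120 to 97210 CPM in Mettl3-deficient livers, where 2 of the 10 fell and 0 rose. Wild-type library 1 stood apart: its log2 CPM correlated across genes at 0.943 and 0.939 with replicates 2 and 3, which correlated at 0.983 with each other. Counts of Y-linked genes were present in wild-type library 1 (6508) and Mettl3-deficient libraries 1 and 2 (4747 and 5031) and 0 in the other 3 libraries, so both genotypes held libraries with and without them.

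Promoter sequence was available for 35 of the 43 genes from RefSeq (GRCm38.p6), in windows from 250 bases before to 50 after an annotated start. Words of the E2F site, which factors of the S phase programme bind, were searched on both strands as TTTGGCGC, TTTCGCGC, TTTCCCGC and TTTGCCGC. The windows of 7 of the 35 genes (20%) held one, against 2.60% of all 27025 genes with a window and 4.44% of the tested genes with one. The 7 were Bard1, Brca2, Chek2, Mdc1, Msh6, Rad51c and Xrcc6. Only Msh6 of these was called in the expression data described next, so that the word was found in 1 of 11 genes called higher and in 6 of 23 not called. The word of the NRF1 factor, which reads the same on both strands and is the stretch in capitals in Lig4 and Polh, was found in those 2 genes alone (5.71% of the 35, against 1.07% of all genes and 2.19% of the tested ones), which were both called higher. The word CCAAT was found in 54.3% of the 35 against 41.1% of all genes and 42.6% of the tested ones, and the CHR word TTTGAA in 8.57% against 20.2% and 14.6%. None of the words contains another, though E2F and NRF1 words can share end bases, and a match is a description of letters, not a binding site.

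Shown first are the stretches that end at the base before the start for Rad51b, the gene with the largest gain among those above 1 CPM in wild type (chr12:79297162-79297281, plus strand), and for the NRF1-word genes Lig4 (chr8:9977681-9977800, minus strand) and Polh (chr17:46202642-46202781, minus strand). Capitals mark the CCAAT word in Rad51b, on the other strand as ATTGG, and the NRF1 words in Lig4 and Polh. Then follow 40 bases around the E2F word, in capitals, of 4 genes that carry it and were not called: Brca2 (chr5:150522437-150522476, plus strand), Bard1 (chr1:71103158-71103197, minus strand), Chek2 (chr5:110839815-110839854, plus strand) and Xrcc6 (chr15:82016307-82016346, plus strand). In Brca2, Chek2 and Xrcc6 the word lies on the other strand and reads GCGGGAAA. All are written 5′ to 3′ along the gene.
Rad51b: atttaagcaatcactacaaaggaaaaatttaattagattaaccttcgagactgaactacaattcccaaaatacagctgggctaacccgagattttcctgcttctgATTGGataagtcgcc
Lig4: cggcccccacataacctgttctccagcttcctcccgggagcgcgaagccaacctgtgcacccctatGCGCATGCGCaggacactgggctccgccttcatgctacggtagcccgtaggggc
Polh: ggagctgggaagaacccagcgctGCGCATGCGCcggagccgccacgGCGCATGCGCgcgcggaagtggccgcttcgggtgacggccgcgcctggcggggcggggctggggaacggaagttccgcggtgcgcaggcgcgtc
Brca2: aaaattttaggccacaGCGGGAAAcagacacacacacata
Bard1: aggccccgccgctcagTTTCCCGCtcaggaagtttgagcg
Chek2: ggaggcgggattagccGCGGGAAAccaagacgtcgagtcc
Xrcc6: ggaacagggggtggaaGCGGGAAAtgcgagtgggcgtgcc

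Of the 43 repair genes, 13 were called higher in Mettl3-deficient livers and 1 lower by edgeR. That is 30.2% higher and 2.33% lower, where among all tested genes 13.3% were called higher and 10.5% lower. The median log2 fold change was 0.48, against 0.01 for all tested genes, and 33 of the 43 values were above 0. The shift was largest in genes at low levels. At a mean below 5 CPM over the 6 libraries, 7 of 17 repair genes were called higher, against 13.1% of all genes there. The medians were 1.52 and 0.21. From 5 to 15 CPM, 4 of 18 were called higher, against 17.5%, with medians of 0.12 and 0.13. From 15 CPM, 2 of 8 were called higher, against 11.7%, with medians of 0.16 and -0.09. The 3 Mettl3-deficient libraries all lay above the 3 wild-type libraries for 20 genes (46.5%, against 23.9% of all tested genes) and all below for 1 (2.33%, against 21.9%). Exo1, Polq, Rad51ap1, Chek1, Rad54l and Fancd2 reached the minimum count in all 3 libraries only in the Mettl3-deficient group. These 6 thus entered the test through the group in which they were high. Of them 4 are among the 13, and all but Rad54l are among the 20. All 6 lie below 5 CPM and give 4 of the 7 higher calls there, so the shift in that range rests in part on them. In bulk tissue a change in the number of cells of a type and a change in RNA per cell cannot be told apart. With library size alone in place of TMM, which moved the median of all tested genes to 0.49, 22 repair genes were called higher and 0 lower, against 33.4% and 4.14% of all genes.

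**Figure D1:**
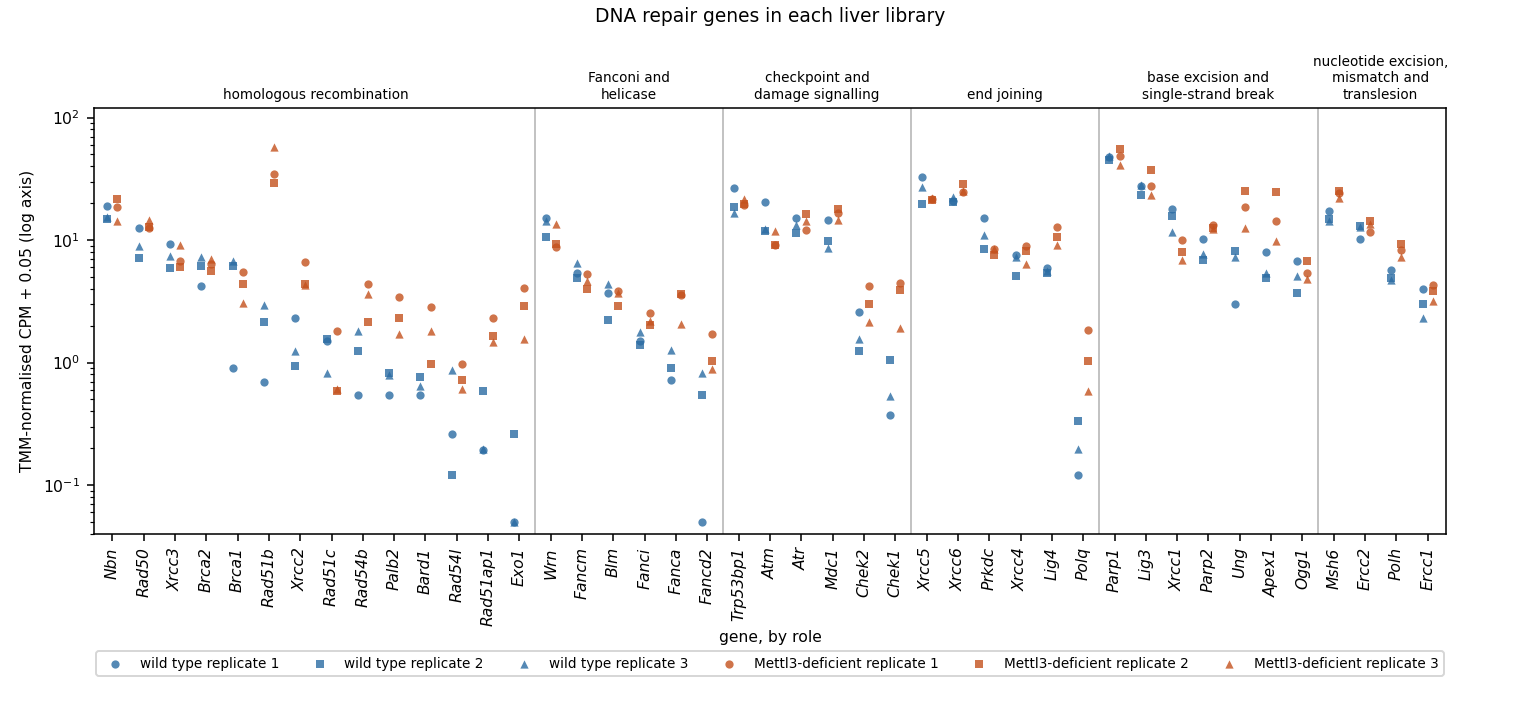
Level of each of the 43 repair genes in each library, as TMM-normalised CPM plus 0.05 on a log axis, grouped by role and ordered by wild-type mean, with wild type in blue and Mettl3-deficient in orange and 1 symbol per replicate. Rad51b reached 29.1 to 57.0 CPM in the Mettl3-deficient libraries against at most 2.88 CPM in wild type, while Parp1, the gene with the highest counts, overlapped between the groups.

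The count of 13 depended on single libraries. It was 15 without wild-type library 1, and still 13 when Mettl3-deficient library 3 was removed. Each of these fits called 13.1% of all tested genes higher. Removing library 2 or 3 of wild type gave 4 and 3 of 43, and removing library 1 or 2 of the Mettl3-deficient group gave 2 and 8, that is 9.30%, 6.98%, 4.65% and 18.6%. In those 4 fits 5.68%, 6.28%, 5.88% and 7.63% of all genes were called higher, so without Mettl3-deficient library 1 the share of repair genes was below that of all genes. Rad51b and Exo1 kept their calls whichever of the 6 libraries was removed, and no other of the 43 genes did. Exo1 had 0, 6 and 0 wild-type counts and entered the test through the Mettl3-deficient group, so its kept call is weak support.

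Homologous recombination held 5 of the 13 calls, among 14 genes, and 0 lower calls. Rad51b (Entrez 19363, chromosome 12, 79297282 to 79848260, GRCm38, as for all positions here), which acts in recombination with Rad51c and Xrcc2, measured 0.639, 2.09 and 2.88 CPM in wild type and 34.5, 29.1 and 57.0 CPM in Mettl3-deficient livers. Each Mettl3-deficient library was at least 10 times the highest wild-type one. The means (± SD, n = 3) were 1.87 ± 1.14 CPM for wild type and 40.2 ± 14.8 CPM for the Mettl3-deficient group. The gene rose 21.5-fold, or 4.43 ± 0.54 (SE) on the log2 scale, at an edgeR adjusted p of 0.00363. The RefSeq gene spans 550979 bases, and counts over a whole gene do not show which exons the reads came from. Its protein-coding neighbours Zfyve26 and Zfp36l1 had log2 fold changes of 0.20 and -0.03 and were not called (edgeR adjusted p = 0.444 and 0.931).

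Exo1 (Entrez 26909, chromosome 1, 175880768 to 175911396), the exonuclease that resects DNA ends and also acts in mismatch repair, had 0, 6 and 0 counts in wild type and 161, 128 and 60 counts in Mettl3-deficient livers. In CPM these were 0, 0.212 and 0 against 4, 2.83 and 1.52. The groups did not overlap, and the log2 fold change was 5.21 ± 0.97 (SE; edgeR adjusted p = 0.0108), a value that rests on 6 wild-type counts and moved between 4.64 and 9.65 when 1 library was left out.

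Rad51ap1 (Entrez 19362, chromosome 6, 126923415 to 126939621), which promotes strand pairing, measured 0.142, 0.530 and 0.148 CPM in wild type and 2.26, 1.59 and 1.42 CPM in Mettl3-deficient livers (log2 fold change 2.66 ± 0.59, SE; edgeR adjusted p = 0.0182). Palb2 (Entrez 233826, chromosome 7, 122107262 to 122132980), the partner that brings BRCA2 to breaks, measured 0.497, 0.778 and 0.739 against 3.35, 2.28 and 1.67 CPM (1.85 ± 0.41; edgeR adjusted p = 0.0179). Xrcc2 (Entrez 57434, chromosome 5, 25689814 to 25705797), of the same complex as Rad51b, measured 2.27, 0.884 and 1.18 against 6.53, 4.32 and 4.23 CPM (1.79 ± 0.41; edgeR adjusted p = 0.0199). None of the 3 overlapped between the groups. Their calls were lost without wild-type library 3 or Mettl3-deficient library 1, and those of Palb2 and Xrcc2 also without wild-type library 2, with edgeR adjusted p up to 0.0727 for Rad51ap1, 0.08 for Palb2 and 0.0783 for Xrcc2.

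The tumour suppressors Brca1 and Brca2 were not called. Brca1, which directs resection and recombination, measured 0.852, 6.05 and 6.73 CPM in wild type and 5.41, 4.34 and 3.01 CPM in Mettl3-deficient livers. Wild-type library 1 alone was low, and the other wild-type libraries lay above every Mettl3-deficient one (log2 fold change -0.09 ± 0.64, SE; edgeR adjusted p = 0.927). Leaving out wild-type library 1 gave -0.59, and leaving out wild-type library 3 gave 0.30. Brca2, which works downstream of BRCA1 and PALB2, measured 4.16, 6.12 and 7.28 against 6.38, 5.58 and 6.97 CPM, with overlap and a log2 fold change of 0.11 ± 0.27.

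Bard1, the obligate partner of BRCA1, measured 0.497, 0.707 and 0.591 CPM in wild type and 2.81, 0.930 and 1.75 CPM in Mettl3-deficient livers. The groups were apart, but its edgeR adjusted p was 0.0505 (log2 fold change 1.60 ± 0.50, SE), and it passed with upper-quartile factors (0.048), library size alone (0.0127), DESeq2 (0.0149), a filter of CPM of at least 1 (0.0441) and without Mettl3-deficient library 2 (0.037). Rad54b, a recombination translocase, was close as well (1.52 ± 0.50; edgeR adjusted p = 0.0612), called with library size alone (0.0145), DESeq2 (0.0157) and the Y-linked covariate (0.0457). Rad54l, its relative, had a log2 fold change of 0.96 ± 0.77 on 2 to 22 counts per wild-type library. The break sensors Rad50 and Nbn, of the MRE11 complex, had values of 0.48 ± 0.23 (apart) and 0.15 ± 0.20 (overlapping), and the recombination genes Rad51c and Xrcc3 had -0.40 ± 0.58 and -0.05 ± 0.26. None of Rad50, Nbn, Rad51c and Xrcc3 was called, and the values of Rad51c and Xrcc3 were below 0 where Rad51b and Xrcc2 rose. Rad50 passed with library size alone (edgeR adjusted p = 0.0209) and without wild-type library 1 (0.0379).

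**Figure D2:**
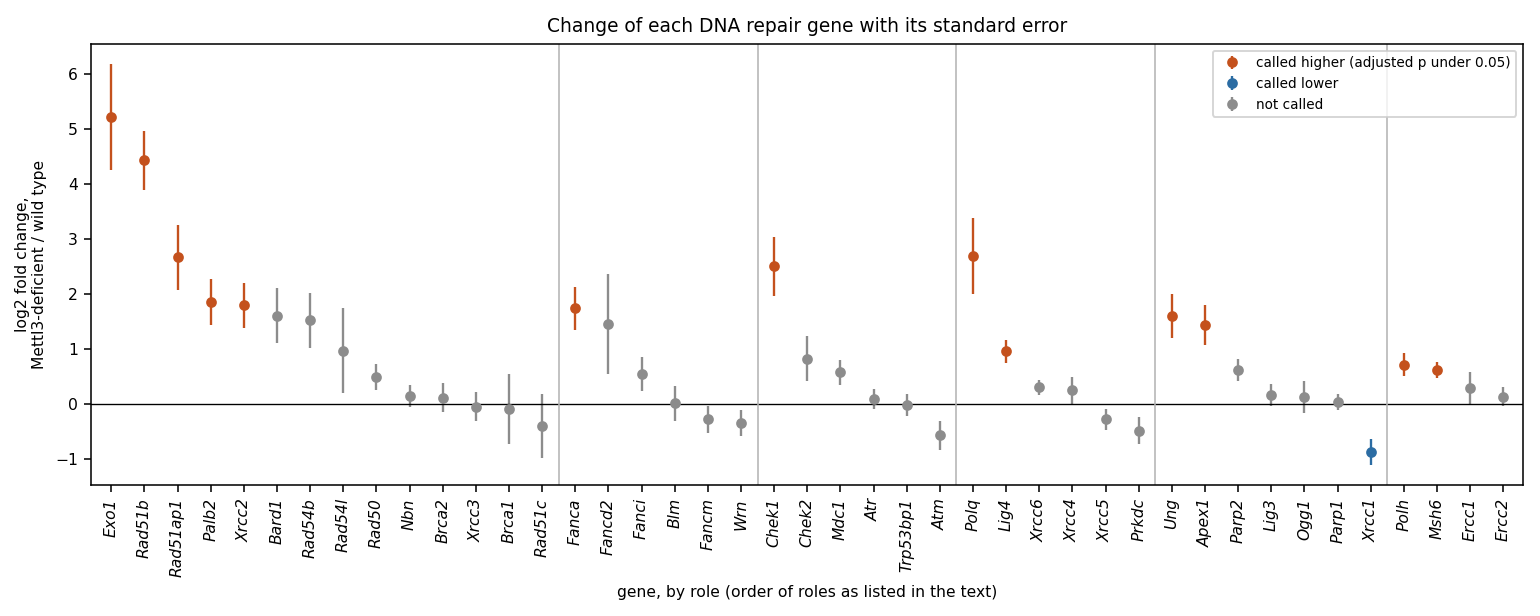
Log2 fold change of each repair gene, Mettl3-deficient over wild type, from the edgeR fit on 3 libraries per group, with bars of 1 standard error, called genes in orange (higher) or blue (lower) and the others in grey, grouped by role from homologous recombination at the left to nucleotide excision, mismatch and translesion repair at the right. Exo1 (5.21) and Rad51b (4.43) stood highest, and Xrcc1 (-0.87) was the lowest and the only gene called lower.

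Among 6 Fanconi and helicase genes 1 was called higher. Fanca (Entrez 14087, chromosome 8, 123266294 to 123318651), a subunit of the core complex that attaches ubiquitin at crosslinks, measured 0.675, 0.849 and 1.22 CPM in wild type and 3.50, 3.61 and 2.03 CPM in Mettl3-deficient livers. The groups were apart and the log2 fold change was 1.73 ± 0.39 (SE; edgeR adjusted p = 0.0189). The call was lost without wild-type library 2, Mettl3-deficient library 1 or Mettl3-deficient library 2 (edgeR adjusted p up to 0.0742). Fancd2 and Fanci form the clamp that this complex modifies. Fancd2 measured 0, 0.495 and 0.776 CPM against 1.66, 0.974 and 0.836 CPM, and Fanci 1.46, 1.34 and 1.74 against 2.51, 1.97 and 2.13 CPM. Both pairs of groups were apart, narrowly for Fancd2, with log2 fold changes of 1.45 ± 0.91 and 0.54 ± 0.31, and neither was called (edgeR adjusted p = 0.272 and 0.226). The fork translocase Fancm (-0.28 ± 0.24) and the RecQ helicases Blm (0.01 ± 0.32) and Wrn (-0.35 ± 0.24) were not called and overlapped.

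Of 6 checkpoint and damage signalling genes, 1 was called higher. Chek1 (Entrez 12649, chromosome 9, 36708482 to 36726658), the kinase that acts below ATR at stalled forks, measured 0.320, 0.990 and 0.481 CPM in wild type and 4.44, 3.87 and 1.85 CPM in Mettl3-deficient livers. No libraries overlapped, and the gene rose 5.65-fold (log2 fold change 2.50 ± 0.53, SE; edgeR adjusted p = 0.016), a call lost without wild-type library 3 (0.0574) or Mettl3-deficient library 1 (0.0612). Chek2, the kinase below ATM, had a smaller value that was not called, 0.82 ± 0.40, with overlap. The apical kinases were not called. Atr measured 11.5 to 15.2 CPM in wild type and 12.0 to 16.2 CPM in Mettl3-deficient livers, and Atm 11.8 to 20.6 against 8.99 to 11.9 CPM (log2 fold changes 0.09 ± 0.19 and -0.58 ± 0.26, edgeR adjusted p = 0.759 and 0.139). The chromatin mediators Mdc1 and Trp53bp1, which gather repair proteins at breaks, had 0.57 ± 0.23 (edgeR adjusted p = 0.1) and -0.03 ± 0.20. Mdc1 was called without wild-type library 1 (0.0217) and with library size alone (0.0152).

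End joining held 2 calls among 6 genes. Lig4 (Entrez 319583, chromosome 8, 9970020 to 9977680), the ligase that seals ends in the classical route, measured 5.90, 5.30 and 5.51 CPM in wild type and 12.8, 10.5 and 9.02 CPM in Mettl3-deficient livers. The wild-type values were tight, and the gene rose 1.94-fold (log2 fold change 0.95 ± 0.21, SE; edgeR adjusted p = 0.018), a call lost without wild-type library 2 or 3 or Mettl3-deficient library 1 (up to 0.0854). Polq (Entrez 77782, chromosome 16, 37011741 to 37095419), the polymerase of the microhomology route, had 2, 8 and 4 counts in wild type and 72, 44 and 21 in Mettl3-deficient livers. Its CPM values were 0.0710, 0.283 and 0.148 against 1.79, 0.974 and 0.532, a rise of 2.69 ± 0.70 on the log2 scale (edgeR adjusted p = 0.0292). Mettl3-deficient library 3 was the only library without which the call of Polq remained, and it was lost with limma-voom (0.0549), the replicate number as a block (0.0592) and the Y-linked covariate (0.0785), with 0.118 as the highest value without 1 library.

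The other genes of classical end joining were not called. Xrcc5 and Xrcc6 encode the Ku ring that binds ends first, and Prkdc the kinase recruited by it. Xrcc6 measured 20.8, 20.5 and 22.4 CPM in wild type and 24.7, 28.6 and 25 CPM in Mettl3-deficient livers, apart but not called (log2 fold change 0.30 ± 0.14, SE; edgeR adjusted p = 0.154). Xrcc5 measured 19.6 to 32.5 against 21.2 to 22.2 CPM, and Prkdc 8.35 to 15.1 against 7.57 to 8.47 CPM (-0.28 ± 0.20 and -0.49 ± 0.25). Xrcc4, the scaffold of LIG4, had 0.25 ± 0.25.

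Base excision and single-strand break repair held 2 higher calls and the single lower call, among 7 genes. Ung (Entrez 22256, chromosome 5, 114130366 to 114139321), the glycosylase that removes uracil from DNA, measured 2.98, 8.17 and 7.28 CPM in wild type and 18.5, 25 and 12.5 CPM in Mettl3-deficient livers (log2 fold change 1.60 ± 0.40, SE; edgeR adjusted p = 0.0262). Apex1 (Entrez 11792, chromosome 14, 50924949 to 50927188), the endonuclease that cuts at the sites such glycosylases leave, measured 7.92, 4.81 and 5.32 against 14.3, 24.7 and 9.85 CPM (1.44 ± 0.36; edgeR adjusted p = 0.0267). For both, the lowest Mettl3-deficient library, replicate 3, was nearest to wild type and still above it. Both calls were lost without wild-type library 2 or 3 or Mettl3-deficient library 1 or 2 (up to 0.0865 for Ung and 0.0919 for Apex1), that of Ung also with the Y-linked covariate (0.0587) and that of Apex1 with limma-voom (0.052). Ogg1, the glycosylase for oxidised guanine, was not called, at means of 5.15 ± 1.54 and 5.59 ± 0.998 CPM (SD, n = 3).

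Xrcc1 (Entrez 22594, chromosome 7, 24546699 to 24573438), the scaffold of single-strand break repair, fell from 17.9, 15.7 and 11.5 CPM in wild type to 9.93, 7.97 and 6.81 CPM in Mettl3-deficient livers. All 3 Mettl3-deficient libraries were below all 3 wild-type libraries, the only one of the 43 genes with that order, and the log2 fold change was -0.87 ± 0.23 (SE; edgeR adjusted p = 0.0323). The call was lost when any 1 library other than wild-type library 3 was left out (up to 0.0986) and with library size alone (log2 fold change -0.40, edgeR adjusted p = 0.24). Lig3, the ligase that XRCC1 carries, measured 23.1 to 28.2 against 23.3 to 37.6 CPM and was not called (0.16 ± 0.20). Parp1, the sensor that recruits XRCC1, measured 47.6, 44.9 and 48.6 CPM in wild type and 48.1, 55 and 41.3 CPM in Mettl3-deficient livers (0.03 ± 0.15; edgeR adjusted p = 0.882). Its relative Parp2 measured 6.82 to 10.1 against 12.2 to 13.2 CPM, apart but at an edgeR adjusted p of 0.0611 (0.62 ± 0.20). Parp2 passed with library size alone (0.00857), with DESeq2 (0.0321) and without wild-type library 1 (0.0217).

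In the last group 2 of 4 genes rose by less than 2-fold. Msh6 (Entrez 17688, chromosome 17, 87975050 to 87990892), which recognises single mismatches, measured 17.1, 14.9 and 14.4 CPM in wild type and 24.1, 25 and 21.9 CPM in Mettl3-deficient livers (1.53-fold, log2 fold change 0.61 ± 0.15, SE; edgeR adjusted p = 0.0231). Polh (Entrez 80905, chromosome 17, 46171355 to 46202641), the polymerase that copies past ultraviolet damage and a known target of p53, measured 5.68, 4.81 and 4.66 against 8.32, 9.32 and 7.22 CPM (1.64-fold, 0.71 ± 0.22; edgeR adjusted p = 0.048). Both sets of libraries were apart. Both calls were lost without wild-type library 2 or 3 or Mettl3-deficient library 1 or 2, with edgeR adjusted p up to 0.0948 for Msh6 and 0.144 for Polh, and that of Polh also without a filter on low counts (0.0631), with the replicate number as a block (0.0947) and with the Y-linked covariate (0.0698). The nucleotide excision genes Ercc1, part of an incision nuclease, and Ercc2, a helicase of TFIIH, had 0.28 ± 0.30 and 0.13 ± 0.18 and were not called.

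Levels can be compared between genes only per length. Divided by the length of annotated exons (GENCODE M21), Parp1 ranked first in wild type at 12.1 ± 0.493 CPM per kilobase (SD, n = 3), followed by Xrcc5 at 10.3 ± 2.52, which did not differ beyond its spread. Nbn and Xrcc6 came next at 6.46 ± 0.854 and 6.4 ± 0.308 CPM per kilobase, also within their spread. Exo1 at 0.00907 and Polq at 0.0196 CPM per kilobase were last. In Mettl3-deficient livers the first 3 places were taken by Apex1 at 13.2 ± 6.15, Parp1 at 12.4 ± 1.76 and Rad51b at 11.4 ± 4.19 CPM per kilobase, values that overlapped within their spread. Rad51b had ranked 30 of 43 in wild type, at 0.530 ± 0.322 CPM per kilobase. Counts were per Entrez gene, whose exons can differ from those in GENCODE, so the ranks per kilobase are approximate. Rad51b, for instance, ends at 79848260 in RefSeq and at 79814690 in GENCODE.

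**Figure D3:**
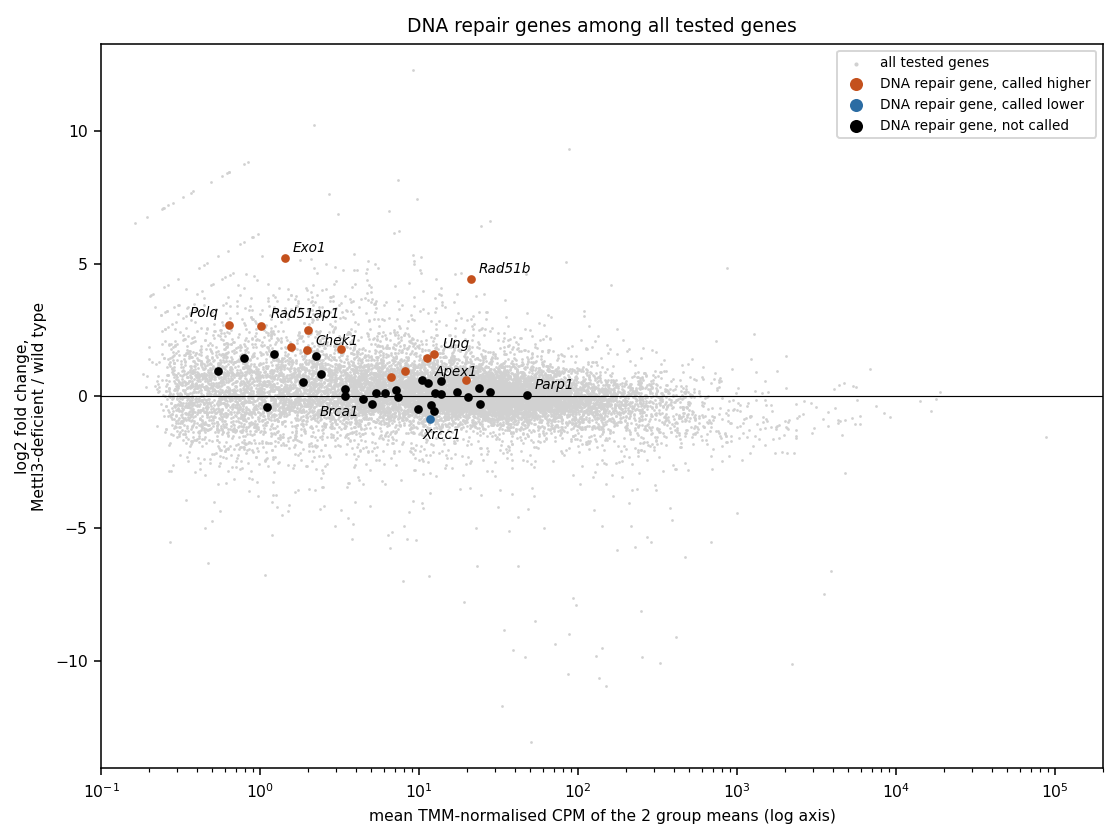
Log2 fold change against the mean of the group means in CPM (log axis), with all tested genes in grey repair genes called higher in orange, the one called lower in blue and the others in black. The repair genes below 5 CPM with large gains, such as Exo1, Polq, Rad51ap1 and Chek1, lay at the upper left, and Rad51b, at a mean of 21.0 CPM, lay to their right.

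In 12 of the 13 genes called higher, replicate 3 was the lowest of the 3 Mettl3-deficient libraries, and Rad51b, highest in replicate 3, was not among them. Over all 43 genes replicate 3 was the lowest in 25. The matching shares over all tested genes were not computed, so this order is not shown to be particular to repair genes. Across tested genes replicate 3 was the Mettl3-deficient library that correlated best with each wild-type library (0.892, 0.926 and 0.927). Replicate 3 was also the one Mettl3-deficient library without Y-linked counts. With a covariate for such counts 11 repair genes were called higher and 1 lower. These are 25.6% and 2.33%, against 12.1% and 10.5% of all tested genes in that fit. Among wild-type libraries, replicate 1 was the lowest in 8 of the 13 genes and the highest in the other 5. Over the 43 genes it was the lowest in 14 and the highest in 21, and replicate 2 was the lowest in 22.

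Of 25 genes of dividing cells 21 rose and 0 fell, with a median log2 fold change of 2.34. Their summed level was 49.3, 86.6 and 103.5 CPM in wild type and 422.7, 289.9 and 247.1 CPM in Mettl3-deficient livers, lowest in wild-type library 1 and highest in Mettl3-deficient library 1. The replication helicase subunits Mcm2 (log2 fold change 3.20 ± 0.31, SE; edgeR adjusted p = 0.00145), Mcm4 (2.08 ± 0.28; 0.00428) and Mcm3 (2.21 ± 0.33; 0.00545) and the mitotic kinase Aurka (2.02 ± 0.28; 0.00459) had the smallest p-values. The part of dividing cells in the repair gene changes was not tested. Of 20 targets of p53, the factor that damage kinases activate, 13 rose and 0 fell, with Phlda3 (3.86 ± 0.25), Psrc1 (5.37 ± 0.40), Eda2r (3.79 ± 0.34) and Tnfrsf10b (3.68 ± 0.33) first by p. The sum of the p53 targets was 451.1 to 456.2 CPM in wild type and 700.2 to 793.7 CPM in Mettl3-deficient livers. All 43 repair genes summed to 324.1 to 397.5 CPM in wild type and 440.6 to 485.4 CPM in Mettl3-deficient livers, which do not overlap. Without Rad51b the other 42 summed to 322.0 to 396.9 CPM and 383.6 to 456.3 CPM, ranges that overlap. Those sums, to which genes with high counts such as Parp1 add most, were highest in wild-type library 1 and Mettl3-deficient library 2.

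**Figure D4:**
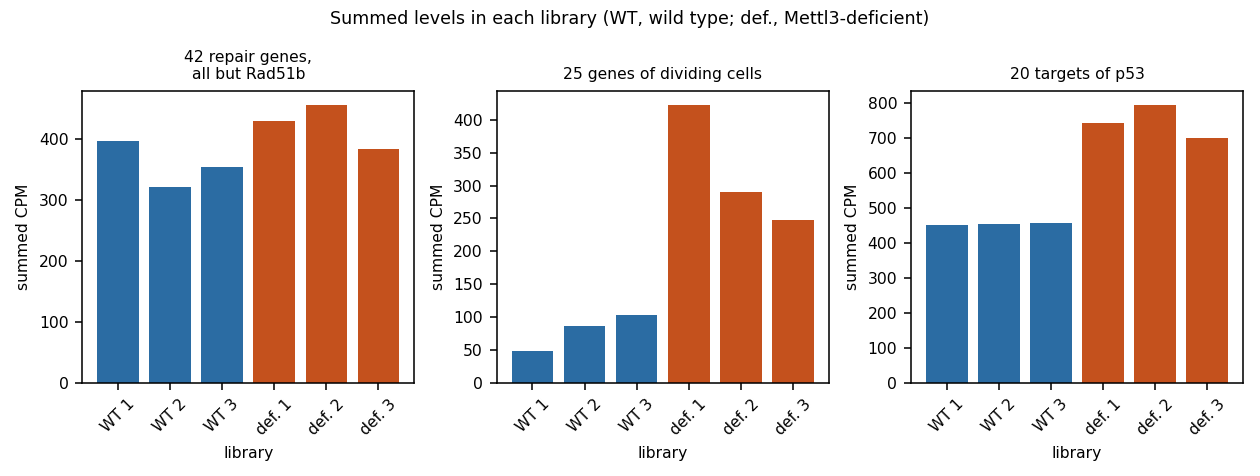
Summed CPM in each library (bars start at 0) of the 42 repair genes other than Rad51b, of 25 genes of dividing cells and of 20 targets of p53, with wild type in blue and Mettl3-deficient in orange. The sums of the 42 repair genes overlap between the groups, those of all 43 (not drawn) do not, nor do the other sums drawn.

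Markers of other cells moved in part. Of 12 Kupffer cell and macrophage genes 5 rose and 0 fell, with summed levels of 147.3 to 456.6 CPM in wild type, lowest in replicate 1, and 442.8 to 776.2 CPM in Mettl3-deficient livers, highest in replicate 2, ranges that overlap. The smallest p-values there were those of the integrin Itgam, Ccr2, Lyz2 and Ly6c2, of monocytes and macrophages, with log2 fold changes of 2.02, 1.45, 0.71 and 2.13 (edgeR adjusted p = 0.00855, 0.012, 0.0225 and 0.0265). Of 8 cholangiocyte genes 2 rose, Sox9 and Muc1, and the sums overlapped (106.7 to 127.3 against 93.81 to 254.6 CPM). Jchain rose among 6 B and plasma cell genes, with sums of 4.10 to 5.72 against 8.02 to 9.14 CPM. Of 6 neutrophil genes only S100a8 and S100a9 were tested, S100a9 rose, and Ly6g had 0 counts in every library. Of 8 endothelial genes Lyve1 fell, of 8 tested T and NK cell genes Cd4 fell, of 3 tested erythroid genes Hba-a1 and Hbb-bs fell, and 0 of 9 stellate and fibroblast genes were called in either direction. The part of these cells in the repair gene changes was not tested.

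Beyond the 43 genes, 131 of 132 other repair genes were tested, and 18 were called higher and 8 lower. These shares, 13.7% and 6.11%, stand beside 13.3% and 10.5% of all tested genes. Higher calls numbered 6 of 30 in recombination, 3 of 13 in the Fanconi pathway, 4 of 25 in signalling, 3 of 16 in base excision, 2 of 11 in translesion synthesis and reversal, and 0 of 12, 0 of 18 and 0 of 6 in end joining, nucleotide excision and mismatch repair. By p the first was Faap100, a Fanconi core partner, which rose from a mean of 7.51 ± 0.145 CPM in wild type to one of 21.3 ± 3.63 CPM in Mettl3-deficient livers (SD, n = 3), at an edgeR adjusted p of 0.00292. Next came the flap endonuclease Fen1 (log2 fold change 2.68 ± 0.35, SE; 0.00379), the recombination ATPase Fignl1 (4.19 ± 0.59; 0.00483), another Fanconi partner, Faap20 (0.86 ± 0.14; 0.00759), the translesion polymerase Polk (1.21 ± 0.21; 0.00916) and the replicative ligase Lig1 (1.81 ± 0.32; 0.00933).

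Among the lower calls the end-joining factor Paxx came first. It fell from 58.0, 29.7 and 32.3 CPM in wild type to 10.6, 9.65 and 5.98 CPM in Mettl3-deficient livers (log2 fold change -2.19 ± 0.32, SE; edgeR adjusted p = 0.0054), while Lig4 rose. The next by p were Rev3l, the catalytic subunit of polymerase zeta (-0.72 ± 0.17; 0.023), Babam1 (-0.53 ± 0.14; 0.0278) and Brcc3 (-0.75 ± 0.19; 0.0294), subunits of the BRCA1-A complex, the recombination mediator Swi5 (-0.56 ± 0.15; 0.03) and Apex2 (-0.96 ± 0.26; 0.0332). The other 2 lower calls were 1 gene each of nucleotide excision and mismatch repair. With library size alone 51 of these other genes were called higher and 1 lower, in a fit that called 33.4% and 4.14% of all tested genes. Without 1 library, the higher calls numbered 6 to 24 and the lower 1 to 8. Those fits called 5.68% to 13.1% of all tested genes higher and 3.53% to 10.7% lower.

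Some repair genes share sequence with a gene on the opposite strand, and whether counting used strand is not given in the sources used here, so reads of such pairs could not be told apart where exons overlap. Among called genes 3 had such a partner with counts in the GENCODE annotation, and none of those partners was called higher. In RefSeq, Ung also overlaps Alkbh2 on the opposite strand, and the part of Alkbh2 in the count of Ung was not tested. Fanca, Palb2 and Rad51ap1 also lie opposite predicted genes of the annotation that were not analysed here. Zfp276, opposite Fanca, fell (log2 fold change -1.13, edgeR adjusted p = 0.0114). Pip4p1, opposite Apex1, had -0.50 (0.056), and Fbxo11, opposite Msh6, had -0.25 (0.252). Among genes not called, Camk1 opposite Ogg1 and Cd3eap opposite Ercc1 rose (1.21 and 1.06; edgeR adjusted p = 0.0108 and 0.0354) and Klc1 opposite Xrcc3 fell (-0.57; 0.0437). Of the other repair genes named for their p-values, Fen1, Lig1, Paxx, Swi5, Polk, Rev3l and Apex2 also overlap a gene on the opposite strand in the annotation. For Apex2 one of these is the erythroid gene Alas2, at 69.1 ± 64.3 CPM in wild type and 25.6 ± 12.6 CPM in Mettl3-deficient livers (SD, n = 3), and its part in the count of Apex2 was not tested.

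**Figure D5:**
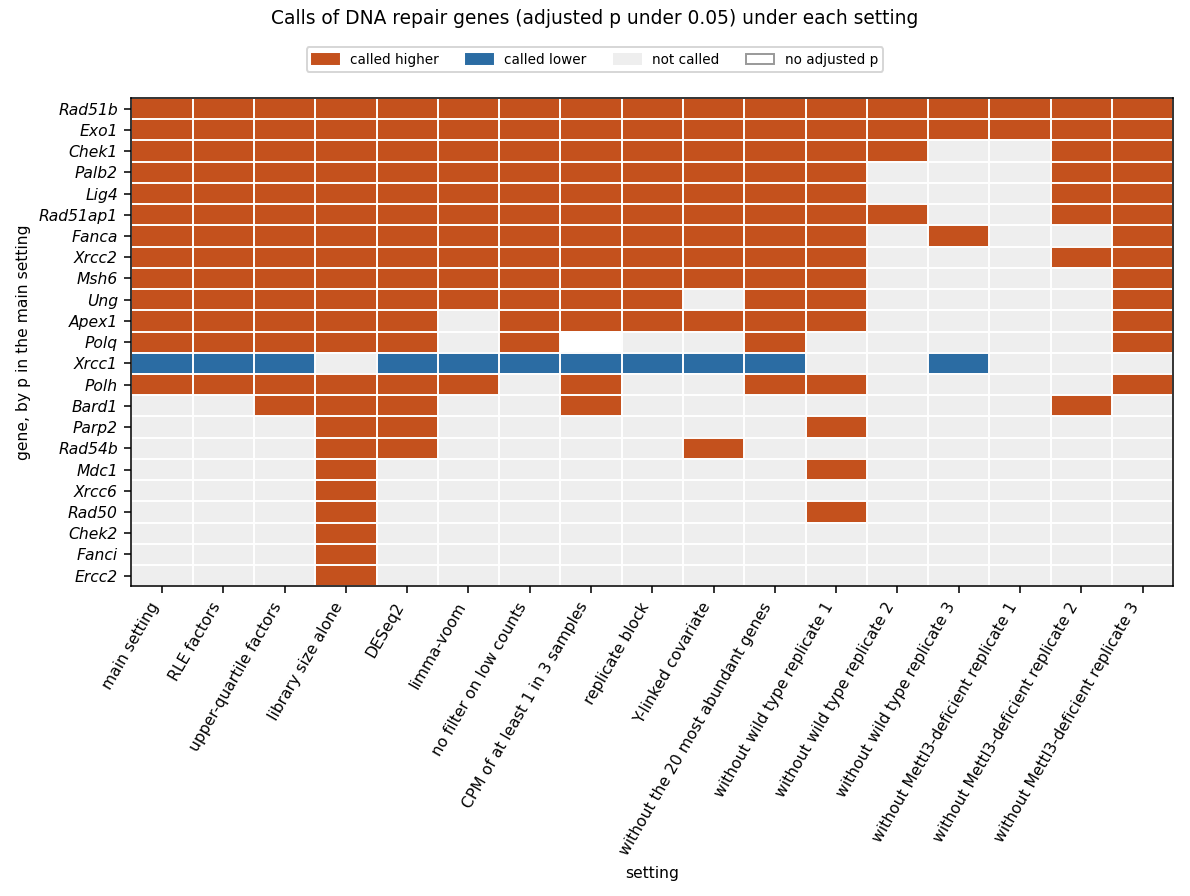
Calls (edgeR adjusted p under 0.05, or that of the named tool) of the 23 repair genes called under at least 1 of 17 settings, 1 column per setting, with orange for higher, blue for lower, grey for not called and white where no adjusted p was given. The rows of Rad51b and Exo1 are orange throughout, and the columns without wild-type library 2 or 3 or Mettl3-deficient library 1 hold the fewest orange cells. Exo1 had 0, 6 and 0 counts in the wild-type libraries.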

How the data were processed

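RNA-seq counts of 6 liver libraries were used, 3 per genotype, grouped by the sample titles. The deposited values are raw counts per Entrez gene without normalization. HISAT2, featureCounts and the mm10 build are named per the submitters' processing notes, and their versions and the strand setting were not given in the sources used here. Per the labels' protocols, libraries were directional and depleted of ribosomal RNA.

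Symbols came from RefSeq GRCm38.p6, the build of mm10, and matched 25275 of 27179 identifiers. Counts were tested in edgeR 4.0.16 (R 4.3.3) with TMM factors, filterByExpr (minimum count 10, minimum total 15) and a robust quasi-likelihood F test on genotype, two-sided, with Benjamini-Hochberg adjustment over 14380 genes. Standard errors were derived from the F statistic. The procedure was tested on simulated data. Alternatives were RLE and upper-quartile factors, library size alone, DESeq2 1.42.0, limma-voom (limma 3.58.1), the replicate number as a block, a covariate for libraries above 100 Y-linked counts, testing without a filter or with genes at CPM 1 or more in 3 libraries, dropping the 20 genes with most counts, and leaving out each library in turn.

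No label says whether samples of a group are separate animals, so the p-values cover only the spread among these libraries. No libraries of a group agreed within sampling noise (chi-square per degree of freedom 17.1 or more). The 43 genes and all lists were chosen with earlier results of these data known. Every one of the 43 could be named. Of other repair genes the 6 smallest p in each direction were named, and of each marker list up to 4 by p. Any other gene named, such as neighbours and strand partners, was chosen for its position or after its values were seen.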

Additional observations from a re-analysis of the deposited data

How the results depend on the processing

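Of 43 genes under 16 alternatives, 581 values kept their direction and side of the threshold, 51 lost the call, 19 gained it and 34 changed sign, the last in 13 genes, none of them called. With library size alone, 22 repair genes were called higher and 0 lower with a median of 0.95, and 51 other repair genes were higher and 1 lower, in a fit where 89.0% of all calls were higher against 55.7% with TMM. The median was 0.29 with a filter of CPM of at least 1, which left 40 genes by construction. DESeq2 called 13 other repair genes lower, a smaller share than it called lower among all tested genes. It also called more of all tested genes lower than edgeR with TMM did, so this count is not shown to be particular to repair genes. When 1 library was left out, repair genes called higher numbered 2 to 15 and lower 0 to 1, and the median ran from 0.31 to 0.51. Other repair genes called numbered 6 to 24 higher and 1 to 8 lower. Those fits, which fewer samples entered, called 5.68% to 13.1% of all tested genes higher and 3.53% to 10.7% lower. With the replicate number as a block, 11 repair genes were higher and 1 lower, and 3 other repair genes were lower. In that fit 10.6% of all tested genes were called higher and 8.03% lower. Deviations of same-numbered libraries had r of 0.084, -0.017 and 0.034, and those of differently numbered ones -0.101 to 0.040. These values cannot settle whether the numbers mark pairs of samples, and the labels do not say. Fanci, Chek2, Xrcc6 and Ercc2 were called higher with library size alone and under no other setting (edgeR adjusted p = 0.0362, 0.0433, 0.00934 and 0.0361). Genes that changed sign with library size alone were Brca1 (0.41), Rad51c (0.0664), Xrcc3 (0.41), Fancm (0.19), Wrn (0.11), Trp53bp1 (0.44) and Xrcc5 (0.18). Brca1 gave 0.35 with limma-voom, 0.19 with the block and 0.59 with the Y-linked covariate. Blm gave -0.00195 with RLE factors and -0.00200 with DESeq2. Trp53bp1 gave 0.00138 with upper-quartile factors and 0.00134 with the block. With the Y-linked covariate Parp1 gave -0.0300 and Ogg1 -0.0230. With 1 library left out, values ran from -0.59 to 0.30 for Brca1, -0.0892 to 0.29 for Brca2, -0.24 to 0.12 for Xrcc3, -0.23 to 0.22 for Blm, -0.0184 to 0.19 for Atr, -0.17 to 0.20 for Trp53bp1, -0.0508 to 0.31 for Lig3, -0.0708 to 0.13 for Parp1 and -0.0763 to 0.36 for Ogg1. The cause of these shifts was not tested. Depth limits genes with few counts, such as Exo1, Polq and Rad54l, most.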
